A study of Drosophila melanogaster with 32 samples.

Results

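Small nucleolar RNA genes (snoRNA genes) were followed in total RNA from cultured Drosophila melanogaster cells. The members are the entries whose biotype in the count files is snoRNA and whose entry carries no mitochondrial prefix, which gave 287 of the 15251 genes counted. No snoRNA entry carried that prefix, so none was removed. The annotation named 193 members by gene ID and 63 by locus tag, and 31 stayed unnamed.

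The 32 libraries came from 3 cell lines, R5, R1 and R4, each sampled at successive passages, where a passage is a transfer of part of a culture to a new flask. The series text defines an early stage at passages 2 to 4, an intermediate stage up to passage 11 and a late stage at passages 16 to 19. R5 gave 3 early, 3 intermediate and 3 late libraries, R1 gave 3, 5 and 3, and R4 gave 3, 5 and 3. Passage 4 is named in both of the first stages and was taken as early, and R4 at passage 12 is named in none and entered no comparison. All lines grew in flasks in Schneider's medium with fetal bovine serum and antibiotics. The labels name neither a genotype nor an origin for R5, R1 or R4. RNA was extracted with TRIzol, long RNA was taken, a Ribo-Zero kit made for mammalian RNA removed ribosomal RNA, and ScriptSeq v2 gave the libraries. Since the passages of each line come from 1 continued culture, p-values between libraries measure the spread between passages, not between cultures. In such bulk samples, fewer cells of a type and less RNA per cell cannot be told apart.

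A snoRNA is a short nuclear RNA that guides a chemical change to a chosen base of another RNA by pairing with it. Box C/D snoRNAs guide 2'-O-methylation and box H/ACA snoRNAs guide pseudouridylation, mostly of ribosomal RNA. U3 is a box C/D snoRNA that is needed to cut out 18S rRNA rather than to modify it, and scaRNAs are relatives in Cajal bodies that guide changes in spliceosomal snRNAs. In flies most snoRNAs lie in introns of host genes and are released when the intron is spliced out and trimmed. The symbols name the guided change, Me for methylation and Psi for pseudouridine, followed by the target RNA and the position in it. A last letter marks the copy of a family.

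The total count per library ran from 7760446 in R1 at passage 11 to 18213927 in R5 at passage 2. Between 199 and 233 members had at least 1 read in a library, with a median of 217.5, and 29 members had no read in any library. Counts were tested with edgeR's quasi-likelihood test across 9177 genes that reached 1 CPM (counts per 1000000 counts) in at least 3 of the 31 staged libraries. CPM values of single genes are scaled by TMM, edgeR's trimmed mean method. Of the members, 152 passed this filter. A member could pass through 1 group in which it was high, so counts over these 152 describe them and not the 287. The filter left 139 members with a mean of at least 1 CPM over the 31 libraries. Adjusted p-values are by Benjamini-Hochberg over all 9177 genes, and called means an adjusted p under 0.05.

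The measured snoRNA pool was mostly box H/ACA RNA. By symbol, 117 members are box H/ACA and 101 of these passed the filter, 109 are box C/D and 27 passed, and 61 could not be classed by symbol, of which 24 passed. Box H/ACA members took 78.0% of all snoRNA counts, box C/D members 6.71% and unclassified members 15.3%. Annotated length differs between the classes, with a median of 140 nt for box H/ACA and 80 nt for box C/D members. The 149 members of 120 nt or more held 96.8% of the snoRNA counts and 128 of them passed, while the 96 members under 100 nt held 2.96% and 21 passed. Over the 256 members with a length, length and mean CPM had a Spearman correlation of 0.63. These points share the libraries, their depth and the selection of long RNA. No box H/ACA member is under 120 nt, so the classes can be set side by side only among the longer genes. Of the 9 box C/D members of 120 nt or more 7 passed, with a median of 2.56 CPM, and of the 117 box H/ACA members 101 passed, with a median of 11.0 CPM. Of the 90 box C/D members under 100 nt 18 passed, with a median of 0.121 CPM. The 9 longer box C/D members held 6.16% of all snoRNA counts and the 90 shorter ones 0.372%. Much of the former came from scaRNA:MeU5-C46, which was put in box C/D by its symbol alone.

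**Figure D1:**
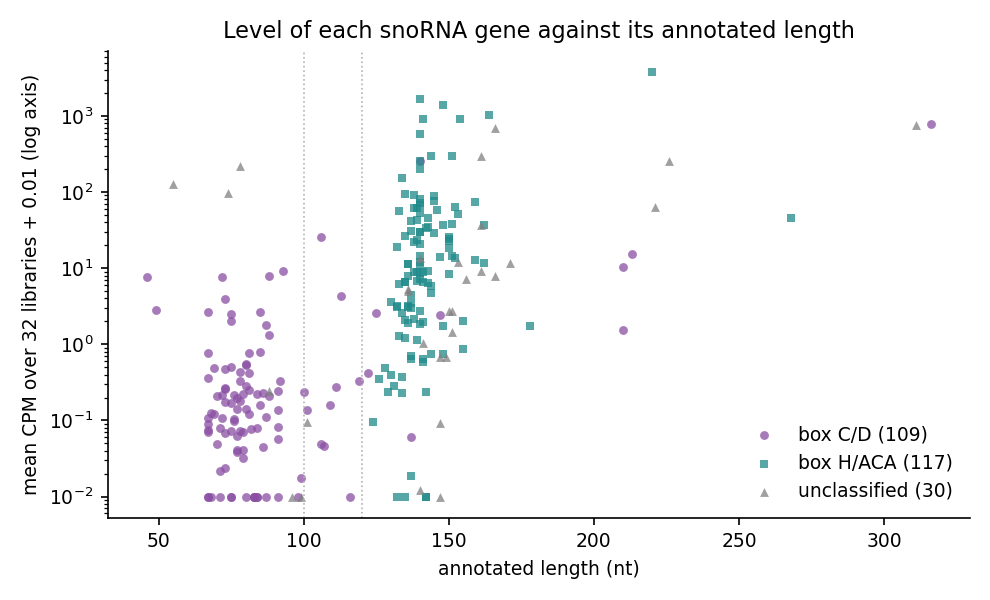
Mean CPM of the total counts, without TMM, over the 32 libraries (vertical log axis, 0.01 added) against annotated length in nucleotides (horizontal axis). The 256 members with a length are shown, 1 point per gene, coloured by class. Most box C/D genes lie under 100 nt and under 1 CPM, while the box H/ACA genes start at 124 nt and reach 3768 CPM.

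A few members carried most of the reads. The most abundant, Psi28S-291, lies in an intron of the ribosomal protein gene RpL3 and took 21.9% of all snoRNA counts. The 5 most abundant took 50.7%, and the 10 most abundant took 72.2%. Per length, Psi28S-291 stood at 17118 CPM per kb of annotated length, Psi28S-2876 at 11729, Or-aca5 at 9403, Psi28S-3436a at 6401, Psi28S-3342 at 6268 and Psi18S-176 at 5875 CPM per kb. Among the other 4 of the 10, Dek-a had 4159, Psi18S-1854c 4116, Tudor-SN-a 2445 and scaRNA:MeU5-C46, named as a guide to U5 snRNA, 2443 CPM per kb.

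Host genes were mostly protein-coding. Introns of an annotated host held 226 members and 139 of these passed the filter. The 71 members in ribosomal protein genes, of which 49 passed, gave 48.0% of all snoRNA counts. RpS5a alone hosts 14 members, all 14 passed, and they gave 17.6% of the counts. The Uhg genes, noncoding genes whose introns release snoRNAs, host 44 members, of which 8 passed, with 9.66% of the counts, nearly all from Uhg4. The 3 U3 copies gave 0.158% and the 15 scaRNAs 4.71%, of which 9 passed.

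The share of all counts that fell in snoRNA genes differed between lines and was not shown to differ between late and early passages. It ran from 1.22% in R1 at passage 17 to 2.49% in R5 at passage 7, with a median of 1.67%. At late passages the share was 2.12, 1.81 and 1.64% in R5, 1.55, 1.22 and 1.43% in R1, and 2.37, 1.98 and 1.77% in R4 (passages 16, 17 and 19). Every late R1 library lay below every late R5 and R4 library, and late R5 and R4 libraries overlapped. The widest 95% Wilson interval of a library's share was 0.0107 percentage points to either side, which covers counting error only.

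**Figure D2:**
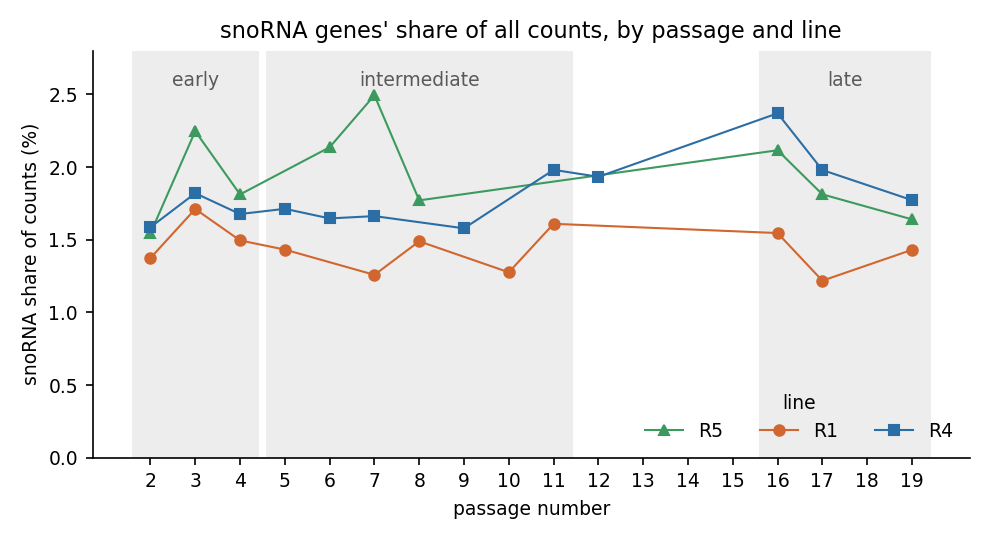
Percent of all counts in snoRNA genes (vertical axis) by passage number (horizontal axis), 1 point per library, with R5 as triangles, R1 as circles and R4 as squares; shaded bands mark the 3 stages. The R1 libraries lie lowest at every late passage, at 1.22 to 1.55%.

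Over the 3 stages taken as strata, the share was lower in R1 than in R4 by 0.371 percentage points (difference -0.371; exact stratified permutation test, two-sided, p adjusted over 3 pairs 0.000595). It was higher in R5 than in R1 by 0.506 points (adjusted exact p = 0.000536). R5 minus R4 was 0.135 points, which did not pass (adjusted exact p = 0.294), and its sign differed between stages, with 0.173 points at early (exact p = 0.7), 0.417 at intermediate (exact p = 0.0357) and -0.185 at late passages (exact p = 0.6). Within single stages, R1 minus R4 was -0.167 points at early (exact p = 0.3), -0.303 at intermediate (exact p = 0.0159) and -0.642 at late passages (exact p = 0.1, the smallest that 3 against 3 libraries allow). R5 minus R1 was 0.341 points at early (exact p = 0.2), 0.720 at intermediate (exact p = 0.0179) and 0.458 at late passages (exact p = 0.1). Over all genes tested, early libraries with the same passage number deviated together (r 0.148 to 0.742). Over the tested snoRNA genes alone r was lower in range, -0.0146 to 0.371. The early values were therefore also set side by side by passage. At passages 2, 3 and 4 the share was 1.54, 2.25 and 1.81% in R5, 1.37, 1.71 and 1.495% in R1, and 1.59, 1.82 and 1.68% in R4, so R1 was lowest in all 3 pairings. Without Psi28S-291 the R1 to R4 difference was 1.75 times smaller, at -0.212 points (adjusted exact permutation p = 0.0197), and R5 minus R1 was 0.279 points (adjusted exact permutation p = 0.0153).

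Late minus early, the share differed by 0.0686 points over the lines (exact stratified permutation p = 0.572, smallest possible 0.00025). Late libraries averaged 1.86 ± 0.241% and early ones 1.87 ± 0.354% in R5, 1.398 ± 0.166% and 1.53 ± 0.171% in R1, and 2.04 ± 0.303% and 1.69 ± 0.118% in R4 (SD, n = 3 each). The groups overlapped in every line.

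Box C/D members took a smaller part of the snoRNA counts at late passages. The class held 6.16 ± 0.509% of snoRNA counts at late and 6.98 ± 0.366% at early passages (SD, n = 9 libraries each), a difference of -0.820 points (exact stratified permutation p = 0.004, adjusted over 3 classes 0.012). As a share of protein-coding counts instead, the difference was -0.0102 points (adjusted exact permutation p = 0.531), a difference that did not pass. The class sum rests largely on scaRNA:MeU5-C46, which averaged 772 of its 1156 CPM over the libraries. Its place in box C/D comes from its symbol alone. That member averaged 730 ± 248 CPM at late and 790 ± 86.2 CPM at early passages (SD over 3 lines) and was not called (-0.08 log2, adjusted p = 0.748). Box H/ACA members differed by 0.547 points (adjusted exact permutation p = 0.284). The part of the 3 U3 copies fell by 0.0685 points (adjusted exact permutation p = 0.012). Their mean share was 0.194% late and 0.193% early in R5, 0.0759% and 0.176% in R1, and 0.0713% and 0.178% in R4. The late and early shares did not overlap in R1 and R4, and they overlapped in R5. For the share of box classes within the snoRNA counts, late minus early (U3), protein-coding counts as the denominator gave -0.00124 points (adjusted exact permutation p = 0.0285). With the 3 copies summed, edgeR's fit over all lines gave -0.67 ± 0.40 log2 (SE, adjusted p = 0.297), which was not called.

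Single members were compared between late and early passages after summing the libraries of each line and stage, so that the 3 lines were the replicates. Of the 152 tested members 11 were called, 10 higher and 1 lower at late passages. Across all genes tested, 10.5% were called in this comparison, 3.98% higher and 6.56% lower. With both directions together, the members' share of 7.24% lay below the background. Split by direction, 10 of 152 called higher was above the 3.98%, and 1 of 152 called lower was below the 6.56%. The members' median log2 change was 0.33, against 0.033 over all genes tested. Of the 27 tested box C/D members 1 was called higher and 0 lower, and their median was 0.35 log2, with 20 above 0 and 7 below.

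The rises included every tested snoRNA in the gene Sf3b3, which encodes a subunit of the splicing complex SF3b. Sf3b3 hosts 9 members and 4 passed the filter. Me28S-A771, a box C/D guide to 28S rRNA, rose by 1.11 ± 0.20 log2 (SE, adjusted p = 0.0261). In R5 it had 6.50, 3.36 and 4.65 CPM late and 2.13, 1.93 and 1.98 CPM early. In R1 it had 2.44, 2.40 and 3.17 CPM late and 1.64, 1.11 and 1.52 CPM early. In R4 the values were 2.17, 3.23 and 1.73 CPM late and 1.48, 1.19 and 0.743 CPM early, so late and early did not overlap in any line. These values rest on 134 late and 85 early reads in R5, 97 and 57 in R1, and 77 and 46 in R4.

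The box H/ACA members of Sf3b3 were more abundant. Psi18S-1086 averaged 50.3 ± 16.2 CPM at late and 26.6 ± 3.95 CPM at early passages (SD over 3 lines), a rise of 0.93 ± 0.20 log2 (SE, adjusted p = 0.0384). Psi18S-110 rose by 0.65 ± 0.14 and Psi28S-3308 by 0.65 ± 0.13 log2 (adjusted p = 0.0421 and 0.0322). Psi28S-3308 late values were 97.6, 77.9 and 70.2 CPM in R5, against 37.6, 60.5 and 49.7 CPM early, and in R1 43.8, 33.2 and 46.3 CPM late overlapped 30.0, 38.8 and 35.0 CPM early. Sf3b3 itself rose by 0.69 ± 0.15 log2 (SE, adjusted p = 0.0411). Its mean was 1215 CPM late and 641 CPM early in R5, 601 CPM late and 461 CPM early in R1, and 899 CPM late and 592 CPM early in R4. The 5 members of Sf3b3 that did not pass the filter are all box C/D.

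**Figure D3:**
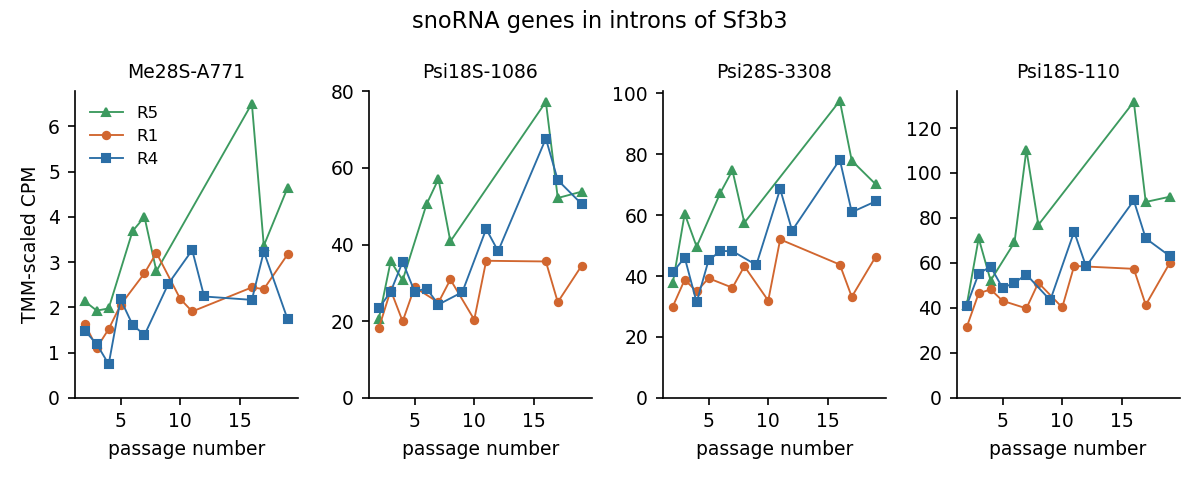
TMM-scaled CPM (vertical axes) by passage number (horizontal axes) of the 4 tested snoRNA genes in introns of Sf3b3, 1 point per library, with R5 as triangles, R1 as circles and R4 as squares. Me28S-A771 reaches 6.50 CPM in R5 at passage 16, and R1 stays lowest at late passages in the other 3 panels.

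The other rises lay in different hosts. Psi18S-1377e, a box H/ACA guide to 18S rRNA in RpS7, rose by 1.05 ± 0.17 log2 (SE, adjusted p = 0.0201). It had 101, 68.1 and 74.3 CPM late and 31.2, 56.4 and 45.9 CPM early in R5. In R4 it had 83.5, 98.5 and 79.4 CPM late and 33.8, 31.9 and 33.2 CPM early. In R1 the values were 21.4, 19.9 and 27.4 CPM late and 10.2, 18.2 and 14.2 CPM early. The late values lay above the early ones in every line, and R1 was lowest in both stages.

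The unclassified RNA 185, annotated outside genes, rose by 0.72 ± 0.097 log2 (SE, adjusted p = 0.0123). It was also called between intermediate and early passages, at 0.60 ± 0.096 log2 (adjusted p = 0.0231). The intronic lola-c rose by 0.86, gcl-a by 0.81, SC35-a by 0.70 and Psi28S-3186 in kra by 0.65 log2, each with an adjusted p of 0.0262 to 0.0399. Their hosts encode a transcription factor (lola), a germ cell regulator (gcl), a splicing factor (SC35) and a translation regulator (kra).

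Psi28S-1180, in the chromatin gene tou, was the member called lower, at -0.52 ± 0.11 log2 (SE, adjusted p = 0.0364). It averaged 58.6 ± 14.7 CPM late and 86.6 ± 20.5 CPM early (SD over 3 lines). Late libraries ran from 25.8 to 86.0 CPM and early ones from 55.2 to 121 CPM.

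None of the 10 most abundant members was called. Their log2 changes ran from -0.17 for Dek-a to 0.40 for Tudor-SN-a, which had an adjusted p of 0.0867. Psi28S-291 averaged 3942 ± 1102 CPM late and 3826 ± 971 CPM early (SD over 3 lines), a change of 0.09 ± 0.12 log2 (SE, adjusted p = 0.650).

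These calls depend on the lines used as replicates. With 1 line left out, 0 members were called without R1, 0 without R4 and 6 without R5, and without the line as a block 0 were called. DESeq2 called 24, of which 21 were higher. Among single libraries the edgeR count ran from 6 without R5 at passage 2 to 16 without R1 at passage 3. Leaving out R1 passage 2, R1 passage 16, R4 passage 2 or R5 passage 16 also moved it by over 1.5 times.

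The intermediate minus early comparison called 2 members, 185 and Me28S-A771 (0.85 ± 0.20 log2, SE, adjusted p = 0.0491), against 9.69% of all genes, 3.67% higher and 6.02% lower. Left-out libraries gave 1 to 3. The late minus intermediate comparison called 0 members with edgeR, 20 had an unadjusted p under 0.05 and DESeq2 called 4, and 0.0763% of all genes were called, 0.0218% higher and 0.0545% lower.

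Each line was then tested alone, with 31 libraries in 9 groups of line and stage. In R4, 65 members were called, 61 higher and 4 lower at late passages, against 30.9% of all genes called in either direction and 14.1% called higher. Of the 139 members with a mean of at least 1 CPM over the 31 libraries, 59 were called higher and 4 lower. The median of the tested members was 0.69 log2, against -0.018 over all genes. Over all 287 members, the late mean was above the early mean in 212 and below it in 39. The late libraries lay above the early ones without overlap in 87 and below them in 5. These directions were not counted over all genes, so they have no background and describe the members only. In R5, 11 members were called, all higher, against 17.4% of all genes, 7.73% higher and 9.72% lower. In R1, 10 members were called, 6 higher and 4 lower, against 27.7% of all genes, 12.5% higher and 15.2% lower.

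Of the tested members in R4, 46 of 101 box H/ACA and 8 of 27 box C/D members rose. Of the 14 members in RpS5a 8 rose and 0 fell, as did 6 of 12 in dom, which encodes a chromatin remodeller, 5 of 6 in Arpc2, an actin-nucleating subunit, and 4 of 8 in kra. RpS5a itself differed by -0.0040 log2 (adjusted p = 0.981). Of the 61 rising members, 59 had a tested host, in 25 genes. These hosts, counted once for each of their members, were called higher for 23 members, lower for 1 and not called for 35. Of all 58 tested hosts, each counted once, 18 were called higher and 3 lower in R4. Without R4 at passage 16, 41 members were called in R4.

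In R5 all 4 tested Sf3b3 members were among the 11 rises. The other R5 rises were Tudor-SN-a (0.54 log2), Psi28S-3305b (0.91), Psi28S-1837c (0.52), scaRNA:MeU2-48 (1.20), 185 (0.56), Psi18S-1377e (0.87) and SC35-a (0.75). Without R5 at passage 16, 1 member was called in R5, and the count also moved by over 1.5 times without R5 at passage 2 or 4. In R1 it moved as far without any one of passages 2, 3, 16, 17 and 19, down to 3 without passage 2.

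U3:9B had the largest called fall in R1. It had 5.41, 3.80 and 5.76 CPM late and 18.2, 26.3 and 16.4 CPM early in R1, a fall of 2.03 on the log2 scale (SE 0.28, adjusted p = 1.14e-05). In R4 it had 12.2, 10.1 and 7.75 CPM late and 25.4, 26.999 and 13.7 CPM early, a change of -1.13 (adjusted p = 0.00263). In R5 it had 15.1, 9.98 and 10.5 CPM late and 17.6, 21.6 and 17.5 CPM early, a change of -0.67 that did not pass (adjusted p = 0.0859). Late lay below early in all 3 lines without overlap.

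The other U3 copies, U3:54Ab and U3:54Aa, were not called within any line. Their names mark them as neighbouring copies and reads of near-identical copies may have been split between them, so their separate levels are uncertain. How such reads were counted is not stated in the labels.

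Psi18S-301, annotated outside genes, fell in R1 and R4. It had 13.5, 8.84 and 12.7 CPM late and 37.7, 51.6 and 26.3 CPM early in R1 (-1.73 log2, SE 0.42, adjusted p = 0.00361). In R4 it had 15.3, 8.94 and 9.99 CPM late and 33.1, 45.4 and 22.9 CPM early (-1.56, SE 0.43, adjusted p = 0.00759). In R5 it had 33.9, 35.7 and 62.6 CPM late and 30.8, 54.9 and 41.3 CPM early, a change of 0.06 (adjusted p = 0.942). The other falls were Me18S-A1576 at -0.996 and Psi28S-2566 at -0.76 in R1, and Me28S-G3253 at -0.88 and Psi28S-1180 at -0.83 in R4. These falls were named after their values were seen.

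The change from early to late differed between lines for 8 members in a joint test, against 12.8% of all genes. The smallest adjusted p was 0.00602, for Psi18S-640b in Arpc2. It had 6.09, 6.28 and 7.53 CPM late and 4.91, 6.75 and 5.41 CPM early in R5, 2.96, 2.56 and 2.92 CPM late and 2.71, 4.37 and 2.84 CPM early in R1, and 9.17, 9.91 and 7.03 CPM late and 4.32, 3.48 and 3.22 CPM early in R4. Late and early were apart in R4 and overlapped in R5 and R1. Psi18S-1347b, in the gene of the poly(A)-binding protein pAbp, rose by 0.96 log2 in R4 (adjusted p = 0.00135) and differed between lines (adjusted p = 0.0179), with changes of -0.18 in R5 and -0.03 in R1. Psi18S-525a, in Arpc2, rose by 1.22 log2 in R4 (adjusted p = 0.00367), with -0.34 in R5 and -0.12 in R1 (adjusted p of the difference 0.0261). Without R4 at passage 17, 1 member was called in this test, and leaving out R1 passage 3, R1 passage 17, R4 passage 2, R5 passage 3 or R5 passage 4 also moved the count by over 1.5 times.

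At late passages R1 was lowest for most tested members. R1 minus R4 called 82 members, all lower in R1, against 14.7% of all genes called in either direction and 7.46% called lower. The median of the tested members was -0.90 log2, against -0.003 over all genes. Over all 287 members, the R1 mean was lower than the R4 mean in 218 and higher in 30. The 3 R1 libraries lay below the 3 R4 libraries without overlap in 123 and above them in 5. The same was not counted over all genes, so these counts have no background and describe the members only. R5 minus R1 called 63 members, 60 higher and 3 lower in R5, with a median of 0.54 log2. Of all genes 33.7% were called in this pair, 17.4% higher and 16.3% lower. R5 minus R4 called 60 members, 13 higher and 47 lower in R5, with a median of -0.40. Of all genes 34.1% were called in this pair, 17.4% higher and 16.7% lower. Without R4 at passage 16, 37 were called in R5 minus R4. Of the same 139 members, 56 were higher and 3 lower in R5 minus R1, and 13 higher and 45 lower in R5 minus R4. These pairs share libraries. Among the tested members, R1 had the lowest late mean in 111, R4 the highest in 103, R5 the highest in 45 and R1 the highest in 4. Lowest and highest lines were not counted over all genes, so these counts too have no background.

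**Figure D4:**
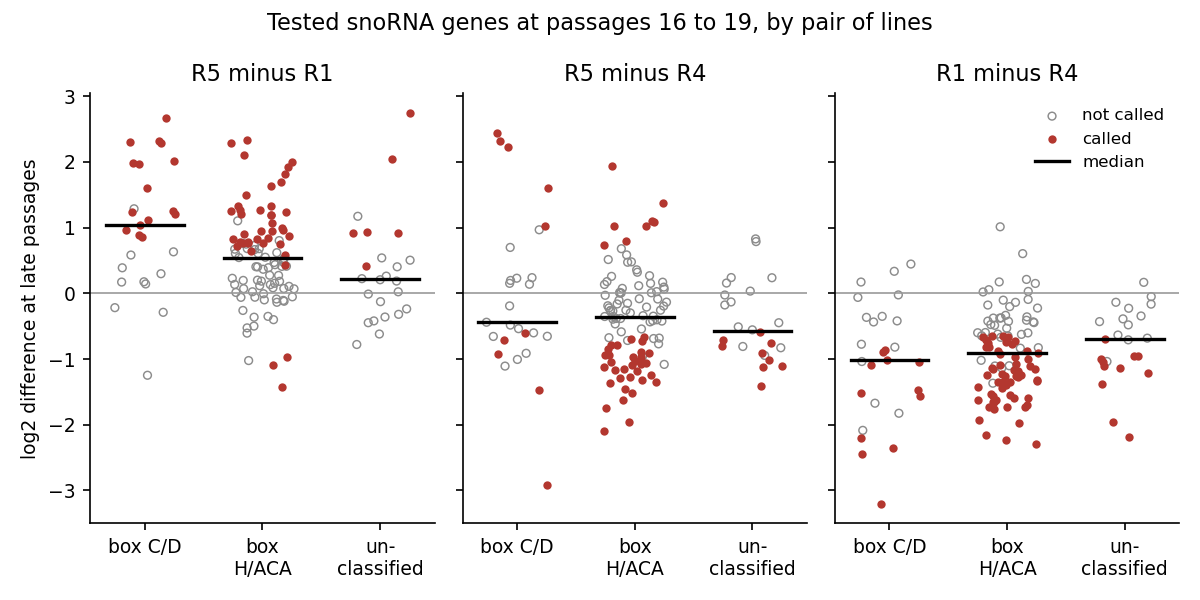
Fitted log2 difference at passages 16 to 19 (vertical axis) of each tested snoRNA gene by class, for R5 minus R1, R5 minus R4 and R1 minus R4; filled points are called, black bars are medians. In R1 minus R4 all 82 called points lie below 0, and the box C/D median of R5 minus R1 is 1.04.

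The line differences spanned the classes. In R1 minus R4, 59 of 101 box H/ACA, 12 of 27 box C/D and 11 of 24 unclassified members were lower in R1. In R5 minus R1, 38 box H/ACA members were higher and 3 lower in R5, 16 box C/D members were higher and 0 lower, and 6 unclassified were higher. With copies of a family summed before the fit, R1 minus R4 called 52 entries.

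Psi28S-291 makes up much of the summed share, so its values are not independent of it. At late passages it had 5272, 4533 and 3963 CPM in R5, 2996, 2447 and 2568 CPM in R1, and 4534, 4979 and 4190 CPM in R4. R1 lay below both other lines without overlap, and R5 and R4 overlapped. R1 minus R4 was -0.77 ± 0.15 log2 (SE, adjusted p = 0.00106) and R5 minus R1 was 0.78 ± 0.15 (adjusted p = 0.000322). Its host RpL3 differed by 0.14 log2 in R1 minus R4 (adjusted p = 0.589) and by -0.25 in R5 minus R1 (adjusted p = 0.217).

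The largest differences of R1 minus R4 were in box C/D members. Me18S-A469 had 0.436, 0.233 and 0.2504 CPM in R1 and 4.40, 1.72 and 2.45 CPM in R4, a difference of -3.20 ± 0.61 log2 (SE, adjusted p = 0.000835), from 11 reads in R1 and 101 in R4. U49:66Da had 0, 0.310 and 0.2504 CPM in R1 and 1.15, 1.29 and 0.816 CPM in R4, from 7 and 36 reads. It passed the filter through R4 libraries alone, so its test is not given. Me18S-C1831, in the ribosomal protein gene RpL27A, had 3.66, 3.33 and 3.92 CPM in R1 and 27.8, 14.5 and 13.7 CPM in R4, a difference of -2.36 ± 0.31 log2 (SE, adjusted p = 1.83e-05). None of these groups overlapped.

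Of R5 minus R1, CG31191-a had 37 reads in the late R5 libraries and 7 in the late R1 libraries, at most 4 in any of these R1 libraries. It passed the filter through few libraries, late R5 ones among them, so its test is not given. Me28S-G3253, a box C/D guide to 28S rRNA in RpS9, had 19.1, 12.7 and 18.6 CPM in R5, 2.70, 3.33 and 1.84 CPM in R1, and 5.27, 2.37 and 2.24 CPM in R4. It was higher in R5 than in R1 by 2.67 ± 0.34 log2 and than in R4 by 2.32 ± 0.33 log2 (SE, adjusted p = 2.26e-06 and 1.24e-05). R1 and R4 overlapped.

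U3:54Ab had 13.5, 19.4 and 28.7 CPM in R5 and 3.75, 0.539 and 7.03 CPM in R4, 2.43 ± 0.52 log2 higher in R5 (SE, adjusted p = 0.000855). Me28S-G764 had 0.420, 0 and 0 CPM in R5 and 1.37, 0.970 and 1.12 CPM in R4, from 4 reads, all at passage 16, and 39 reads. It too passed the filter through R4 libraries alone, so its test is not given. Lower in R5 than in R1 were 3 members, named after their values were seen, Psi28S-3305c (-0.96 log2), scaRNA:PsiU1-6 (-1.09) and scaRNA:PsiU2-38.40.42 (-1.42), with adjusted p of 0.0263, 0.00873 and 0.0120.

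The members of RpS5a differed among themselves. Its 14 members guide changes in 18S or 28S rRNA by name. In R5 minus R1, 8 were higher in R5, with a median of 0.77 log2 over the 14. In R1 minus R4, 7 were lower in R1, with a median of -0.69. Psi18S-1854a had 19.7, 15.1 and 14.3 CPM in R5, 2.96, 2.56 and 4.17 CPM in R1 and 9.82, 12.9 and 7.95 CPM in R4, so the 3 lines did not overlap. It was 2.34 ± 0.33 log2 higher in R5 than in R1 (SE, adjusted p = 8.61e-06) and 1.66 ± 0.33 lower in R1 than in R4 (-1.66, adjusted p = 0.00116). Psi28S-2876 had 1897, 1617 and 1366 CPM in R5, 1995, 1432 and 1663 CPM in R1 and 1865, 1297 and 1231 CPM in R4, and all 3 lines overlapped (R5 minus R1 -0.06 log2, adjusted p = 0.836). RpS5a itself differed by -0.18 log2 in R5 minus R1 (adjusted p = 0.115) and by 0.19 in R1 minus R4 (adjusted p = 0.139). Copies of a family may share reads, so single copies are uncertain.

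**Figure D5:**
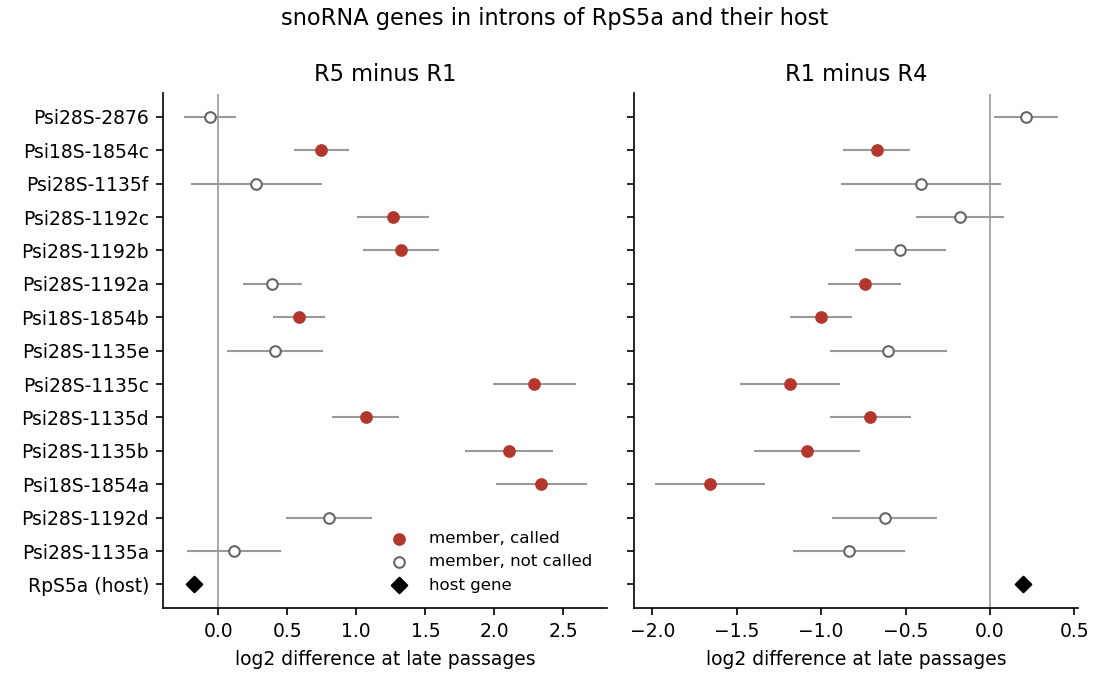
Fitted log2 difference at late passages (horizontal axis) of the 14 snoRNA genes in introns of RpS5a and of RpS5a (diamond, no error bar), for R5 minus R1 and R1 minus R4; bars are standard errors and filled points are called. The members run from -0.06 to 2.34 in R5 minus R1 while the host lies at -0.18.

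Host mRNA levels were set beside the called members in each pair, with a host counted once for each of its members. Of the 82 members lower in R1 than in R4, 74 had a tested host, in 31 genes. The hosts were called lower for 10, higher for 2 and not called for 62. The median over these members was -1.24 log2 and over their hosts -0.145. Of the 60 members higher in R5 than in R1, 50 had a tested host, called higher for 17, lower for 1 and not called for 32. Of the 47 members lower in R5 than in R4, 45 had a tested host, called higher for 6, lower for 7 and not called for 32. Of the 13 members higher in R5 than in R4, 9 had a tested host, called higher for 2, lower for 0 and not called for 7. The same was done between late and early passages. Of the 10 members higher late over all lines 9 had a tested host, called higher for 5 and not called for 4. Of the 11 higher late in R5 10 had one, called higher for 7 and not called for 3. Of all 58 tested hosts, each counted once, 2 were higher and 8 lower in R1 minus R4. In R5 minus R1 14 were higher and 6 lower, and in R5 minus R4 9 were higher and 8 lower. Late minus early, 4 were higher and 3 lower over all lines, and 7 higher and 4 lower within R5.

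Proteins of the snoRNA particles were read from a list. The box C/D core (Fib, the methyltransferase, with nop5, Nop56 and hoip) had 3 of 4 genes lower in R1 than in R4 and 4 of 4 higher in R5 than in R1. Fib averaged 103 CPM in R5, 69.7 CPM in R1 and 96.7 CPM in R4 at late passages, with R1 minus R4 at -0.47 log2 (adjusted p = 0.00596) and R5 minus R1 at 0.56 (adjusted p = 0.000516). nop5 was at -0.82 and 0.76 in the same pairs. The box H/ACA core had Nop60B, the pseudouridine synthase, and NHP2 lower in R1 than in R4 and higher in R5 than in R1, 2 of 4 in each pair. Of 9 tested genes listed for the processome, which acts with U3, 5 were lower in R1 than in R4. In R5 minus R1 5 of them were higher and 1, Nop17l, was lower. Of 6 tested assembly and Cajal body factors, 1 was lower in R1 than in R4 and 2 were higher in R5 than in R1. Nopp140, a nucleolar chaperone of snoRNA particles, was -0.52 log2 in R1 minus R4 (adjusted p = 0.00449) and 0.43 in R5 minus R1 (adjusted p = 0.00783). Between late and early over all lines, 0 of 4 genes of each core were called by edgeR, and 0 of 4 had an unadjusted p under 0.05. Within R4 alone, where 61 members rose, 3 of 4 box C/D core genes were higher late, Fib by 0.37, nop5 by 0.48 and hoip by 0.48 log2 (adjusted p = 0.0160, 0.0284 and 0.0194). Of the box H/ACA core, Nop60B was higher by 0.36 and NHP2 by 0.39 log2 (adjusted p = 0.0156 and 0.00633). Of 6 assembly factors 3 were higher in R4 late, of 9 processome genes 2, and of 10 debranching and exosome genes 1, with 0 lower in each list. Within R5 1 of 4 box H/ACA core genes and 2 of 6 assembly factors were higher late, and within R1 0 genes of these 5 lists were called by edgeR, with 4 at an unadjusted p under 0.05. Their part in the snoRNA differences was not tested.

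Of 10 genes for intron debranching and the RNA exosome, 1 was called higher late over all lines, ldbr, which encodes the lariat debranching enzyme (0.40 log2, adjusted p = 0.0386). Of the Uhg host genes, 2 of the 8 listed were found in the files. Uhg1 averaged 357 CPM in R5, 46.4 CPM in R1 and 63.1 CPM in R4 at late passages, with R5 minus R1 at 2.94 log2 (adjusted p = 9.76e-08), and Uhg2 was at 2.28 (adjusted p = 1.08e-06).

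Markers of other cell types moved with the same contrasts. Between late and early, both tested fat body markers of 4 listed had a lower late mean in every line. Fbp1 averaged 0 CPM late and 5.86 CPM early in R5, 0 and 2.52 CPM in R1, and 0.0359 and 4.96 CPM in R4. It passed the filter without any late library, so its test is not given. apolpp averaged 12.9 CPM late and 138 CPM early in R5, 8.29 and 44.2 CPM in R1, and 17.9 and 171 CPM in R4 (adjusted p = 0.0126). Of the glia markers 1 of 2 was lower, and 0 of 5 hemocyte, 0 of 5 muscle and 0 of 4 neuron markers were called, with 1, 0 and 0 at an unadjusted p under 0.05. In R1 minus R4 at late passages, 2 of 5 hemocyte markers were lower in R1, among them Pxn at 1.54 CPM in R1 and 91.6 CPM in R4, and 2 of 5 muscle markers were higher. In R5 minus R1, 3 of 5 muscle and 3 of 4 neuron markers were lower in R5. In R5 minus R4, 3 of 5 hemocyte, 1 of 5 muscle and 2 of 4 neuron markers were lower in R5, 1 neuron marker was higher, and 0 of 2 glia and 0 of 2 tested fat body markers were called. Within R1, Pxn was called lower late, at 1.54 CPM late and 40.35 CPM early (edgeR adjusted p = 3.73e-05). There 2 of 5 muscle markers were higher, 1 of 2 glia markers was lower and 0 of 4 neuron markers were called. Within R5, 1 of 5 hemocyte, 3 of 4 neuron and 2 of 2 glia markers were lower late, and 0 of 5 muscle markers were called. Within R4, Pxn was the hemocyte marker of 5 called higher late, at 91.6 CPM late and 14.4 CPM early (adjusted p = 0.00180). In the same comparison 2 of 4 neuron and 1 of 2 glia markers were lower late, and 0 of 5 muscle markers were called. The fat body marker apolpp was lower late as well (edgeR adjusted p = 0.00276). Their part in the snoRNA differences was not tested.

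Other short RNA classes were measured in the same libraries. Of 16 tested snRNA genes, 1 was lower in R1 than in R4 and 6 were higher in R5 than in R1, and of 39 tested rRNA genes 7 were lower and 11 higher in these pairs. The rRNA share of all counts ran from 5.37 to 8.17%. At late passages it averaged 6.86 ± 0.846% in R5, 5.72 ± 0.322% in R1 and 7.12 ± 0.659% in R4 (SD, n = 3 each). The snRNA share averaged 0.0444 ± 0.00420% in R5, 0.0355 ± 0.00326% in R1 and 0.0465 ± 0.00365% in R4, and the tRNA share 0.00460, 0.00262 and 0.00439%, so R1 had the lowest mean in each class. The snRNA share was 0.0422 ± 0.00600% over the 9 late and 0.0280 ± 0.00604% over the 9 early libraries, and late and early did not overlap in R5, overlapped in R1 and did not overlap in R4. The part of these classes in the snoRNA differences was not tested.

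At early passages, 31 members differed between lines in a joint test, against 4.69% of all genes, and at intermediate passages 101 did, against 51.6%. Without R1 at passage 2, 12 members were called at early passages, and with passage 4 moved to the intermediate stage 7 were. The count also moved by over 1.5 times without R5 at passage 3 or 4. R1 had the lowest mean of the 3 lines in 100 of the tested members at early and 108 at intermediate passages. The lowest line was not counted over all genes, so these counts have no background and describe the members only. Of the 152 tested members, 22 were called in no comparison.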

How the data were processed

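Total RNA of 32 samples was sequenced. The deposited files hold raw counts per gene; the authors aligned with TopHat 1.4.1 and Bowtie 0.12.8 and used bedtools with BDGP5/dm3, per the submitters' processing notes. The counting rule, strand setting and annotation are not stated there or in the labels, so overlapping genes and copies cannot be separated further. From these counts, 2 entries without a gene (at most 0.0187% of counts) were left out. Symbols were matched by gene ID or locus tag. Lengths and hosts came from positions in the BDGP6.54 annotation. A host is a gene on the same strand that spans the whole snoRNA. Counts were TMM-scaled and tested with edgeR 4.0.16 in R 4.3.3 (quasi-likelihood F test, Benjamini-Hochberg over 9177 genes). Stage comparisons over all lines used the 9 sums of line and stage with line as block, and the others used 31 libraries in 9 groups. SE is the log2 change divided by the root of F. DESeq2 1.42.0 and limma 3.58.1, other scalings, filters, stage definitions, family sums and left-out libraries were alternatives. The edgeR step was tested on simulated data. Over all genes tested, deviations of libraries with the same passage number correlated at 0.148 to 0.742 over 9 early pairs and at -0.0879 to 0.114 over 9 late pairs. By these values passage number pairs early libraries and not late ones. Over the tested snoRNA genes alone the correlations were -0.0146 to 0.371 early and -0.0271 to 0.2 late. Named genes were the 10 most abundant members, the largest called changes in each comparison, the smallest p-values of the line-dependent change, and called or abundant genes of the companion lists. Members and lists were chosen with earlier results of these data known.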

Additional observations from a re-analysis of the deposited data

Results flagged for a closer look

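Single libraries that stood apart from the rest of their group were looked for among the intermediate R1 and R4 libraries only. The other groups were too small. The 62 tests took the named members and the snoRNA share of counts, and 12 values were flagged. A single test flags about 1 in 20 by chance. These tests share libraries and are not independent, so the count cannot be set against that rate. Of the 12 flagged values, 9 came from 1 library, R4 at passage 11, set against the other intermediate R4 libraries. It had 14.56 CPM of Me28S-G3253, 44.05 CPM of Psi18S-1086, 56.84 CPM of Psi18S-1377e, 761.8 CPM of Psi18S-1854c and 4.293 CPM of Psi18S-525a. It also had 1826 CPM of Psi28S-2876, 20.62 CPM of SC35-a, 12.41 CPM of gcl-a and 19.23 CPM of lola-c. R1 at passage 10 stood apart with 1304 CPM of Psi28S-2876 and 6.314 CPM of lola-c, and R1 at passage 11 with 6.744 CPM of Me28S-G3253.

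The late minus early change differed between the lines for 8 members in the joint edgeR test. The adjusted p was 0.006016 for Psi18S-640b, 0.01794 for Psi18S-1347b, 0.02607 for Psi18S-525a, 0.02752 for Psi28S-3327b, 0.02799 for Me28S-A1322, 0.04375 for U3:9B, 0.04409 for Psi18S-525h and 0.04833 for Psi28S-3091a. Of these, 3 lie in introns of Arpc2.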

How the results depend on the processing

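Over the comparisons, 136 of 156 settings kept the direction and the call or stayed within 1.5 times the count. The cause of the changes below was not tested. Late minus early over all lines called 24 members with DESeq2 and 0 with no replicate block, and 0 to 16 with a line or library left out. Intermediate minus early called 1 member under median-of-ratios scaling, total counts, a stricter filter, passage 4 as intermediate or R4 passage 12 as intermediate, 0 with no replicate block, and 0 to 3 with a line or library left out. Late minus intermediate called 4 with DESeq2. With passage 4 as intermediate, 6 were called within R1, 5 within R5, 7 between lines at early passages and 5 for the change that differs between lines. With family copies summed, R1 minus R4 called 52, the early test 19 and the line-dependent change 4. The last also called 4 with no filter, 5 with a stricter filter and 14 with DESeq2. The box C/D difference over protein-coding counts was -0.01016.

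With 1 library left out, the counts ran from 3 to 10 within R1, 41 to 69 within R4, 1 to 13 within R5, 55 to 85 for R1 minus R4, 45 to 67 for R5 minus R1, 37 to 62 for R5 minus R4, 12 to 38 at early passages and 1 to 12 for the line-dependent change. With passage number as a replicate block, R1 minus R4 called 90, R5 minus R1 67, R5 minus R4 66, the early test 45 and the intermediate test 85, and the snoRNA share of counts, R1 minus R4, was -0.3871 points, the snoRNA share of counts, R5 minus R1, 0.489 and the snoRNA share of counts, R5 minus R4, 0.161. The block changed no other call of a comparison.

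The log2 change of snoRNA:Or-aca5, late minus early, all lines, was 0.02783 and not called, and it turned to -0.02525 with total counts, -0.0006943 with no filter, -0.003977 with a stricter filter and -0.005955 with passage 4 as intermediate. With a line or library left out it ran from -0.2263 to 0.1515. Other uncalled members that changed sign ran from -0.1509 to 0.05539 (Psi28S-2876), -0.2038 to 0.07265 (Psi28S-3342), -0.1939 to 0.2993 (Psi18S-176), -0.3526 to 0.05886 (scaRNA:MeU5-C46) and -0.319 to 0.01871 (Dek-a). Members with under 40 reads in a group are limited by depth.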
